A study of Homo sapiens with 9 samples.

Results

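The telomere genes described here are TERT, the catalytic subunit of telomerase, and the genes that hold the protein cap of the chromosome end together, followed across every array of a study of A673 cells. All Affymetrix U133A probe sets whose annotation names one of 8 listed genes as its only gene were taken. This gave 8 probe sets for 6 genes (TERT, TERF1, TERF2, TERF2IP, TINF2 and POT1) out of 19065 probe sets for 11963 genes. DKC1 was listed too, but its 3 probe sets also name other genes and were left out, and TEP1 matched no probe set and was not analysed here. TERT was put forward because an earlier look at these data had found it low with EZH2 siRNA no.2, so that comparison is given as a description with no test.

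A673 is an established line of Ewing sarcoma, a tumour driven by the EWS/FLI fusion gene, and the study asked what the histone methyltransferase EZH2 does in such tumours. All 9 arrays hybridised RNA of this line, which is 1 line and so a narrow model. In 3 groups the cells had been transfected with 5 nM siRNA and kept for 48 hours: a control siRNA (2 arrays), EZH2 siRNA no.2 (2 arrays), and another EZH2 siRNA whose title carries no number, here the unnumbered EZH2 siRNA (1 array). In the other 2 groups the cells had been kept for 24 hours in 0.01% DMSO (2 arrays) or in 100 nM trichostatin A, TSA, which inhibits histone deacetylases (2 arrays). The 2 settings differ in transfection and in time, and these cannot be told apart. The titles call the replicates biological without saying whether they were separate cultures, so any p-value measures only the spread between these arrays.

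Telomeres are the repeats that cap chromosome ends, and they shorten with each division unless telomerase extends them. Telomerase copies an RNA template with its reverse transcriptase TERT, which most somatic cells lack and most tumour cells express at a low level. The shelterin complex covers the repeats: TERF1 and TERF2 (also called TRF1 and TRF2) bind the double strand, POT1 the single-stranded overhang, TINF2 (TIN2) bridges them, and TERF2IP (RAP1) rides on TERF2.

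The values are MAS5 signals, a linear brightness scale. Arrays had trimmed means of 500.1 to 500.2 and medians of 124.7 to 158.9. Arrays of the same group correlated over all probe sets at r = 0.957 to 0.969. Arrays of different groups correlated at r = 0.957 to 0.980, a range that covers the one within groups. The Ewing sarcoma markers were bright, with CD99 at 14840 to 19651 and NKX2-2 at 1363 to 5631. Of the 4 blood markers PTPRC (14.1 to 34.4) and LYZ (1.17 to 10.1) were near the floor, but CD3E read 48.1 to 166 and HBB 96.8 to 231. Of the 4 endothelial markers CDH5 (2.03 to 38.0), VWF (10.3 to 38.3) and KDR (11.9 to 45.5) were dim, and PECAM1 read 89.9 to 138. Of the 5 epithelial markers CDH1 (2.51 to 26.1), EPCAM (2.93 to 40.4) and KRT19 (3.40 to 6.64) were dim, while KRT8 read 178 to 281 and KRT18 4625 to 7416. Of the 5 fibroblast markers LUM was dimmest (0.664 to 65.1) and COL1A2 brightest (4262 to 12305). The blood and epithelial sums were above both control siRNA arrays on all 3 EZH2 siRNA arrays, and the fibroblast sum with EZH2 siRNA no.2. Of the 13671 tested probe sets, 22.4% were above both control siRNA arrays on both EZH2 siRNA no.2 arrays, and 39.2% with the unnumbered EZH2 siRNA. KRT18 made up most of the epithelial sum. The Ewing sarcoma sum was 29347 to 42868 for the control siRNA, 27411 to 30227 for EZH2 siRNA no.2 and 28382 for the unnumbered EZH2 siRNA. It was 30662.5 to 34013 in DMSO and 32167.5 to 34267 in TSA. The blood sum was 195 to 214 for the control siRNA, 242 to 415 for EZH2 siRNA no.2, 376 for the unnumbered EZH2 siRNA, 228 to 336 in DMSO and 253 to 389 in TSA. The epithelial sum was 4838 to 7290, 7344 to 7651, 7668, 5410 to 7641 and 5410 to 6835 in the same order, and the fibroblast sum 5441 to 6456, 6704 to 6812, 6248, 7968 to 8897 and 5542 to 13808. The endothelial sum stayed within 154 to 196. The part of these markers in the results below was not tested.

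The promoter of TERT is shown because TERT was the member put forward, and that of TERF2IP because it varied least. Both are the 250 bases before the gene start, from RefSeq on GRCh38.p14, read 5′ to 3′ on the gene's strand. Of the 6 measured genes, 4 matched an entry of the RefSeq promoter table. Capitals mark E-boxes (CACGTG) and GC boxes (GGGCGG or its reverse complement CCGCCC), searched on both strands. The TERT window lies at chr5:1295069-1295318 (minus strand) and the TERF2IP window at chr16:75647523-75647772 (plus strand).
TERT: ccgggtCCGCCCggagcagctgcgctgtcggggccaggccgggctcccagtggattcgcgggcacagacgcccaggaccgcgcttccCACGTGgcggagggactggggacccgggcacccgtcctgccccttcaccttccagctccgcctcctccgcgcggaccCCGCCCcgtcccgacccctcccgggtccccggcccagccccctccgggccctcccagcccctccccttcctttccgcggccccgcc
TERF2IP: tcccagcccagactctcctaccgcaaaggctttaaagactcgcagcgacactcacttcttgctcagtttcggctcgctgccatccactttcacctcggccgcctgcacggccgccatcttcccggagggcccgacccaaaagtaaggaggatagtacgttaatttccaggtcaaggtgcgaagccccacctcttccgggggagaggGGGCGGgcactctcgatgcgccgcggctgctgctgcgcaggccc

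The TERT window holds 1 E-box, which begins 163 bases before the start, and 2 GC boxes, at 244 and 86 bases, and the motifs do not overlap. The TERF2IP window holds 0 E-boxes and 1 GC box, at 44 bases. E-boxes of these letters occur in 6.34% and GC boxes in 42.6% of the 35116 promoter windows of the table. The TERT window is 78.8% G or C, more than 95.4% of all windows, and the TERF2IP window 62.8%, against a median of 58.0%. The POT1 window, not shown, is 64.4% G or C, with 2 GC boxes and 0 E-boxes. The TINF2 windows, not shown, are 64.4% and 65.2% G or C, with 1 and 2 GC boxes and 0 E-boxes. The short ETS core (GGAA or TTCC) occurs 4 times in the TERT window and 3 times in the TERF2IP window, and 92.7% of all windows have it. A match describes letters only and shows no binding.

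TERT read lower on all 3 arrays with an EZH2 siRNA (30.8 to 122) than on the other 6 (163 to 281). With the control siRNA its signal was 195 on replicate 1 and 281 on replicate 2. With EZH2 siRNA no.2 it was 122 and 68.6, and with the unnumbered EZH2 siRNA 30.8. In DMSO it was 215 and 187, and in TSA 163 and 191. The highest of the EZH2 siRNA arrays (122) was thus below the lowest of the others (163), and only 1 of the 8 probe sets, TERT, had all 3 EZH2 siRNA arrays below the rest, as did 1.13% of the 13671 probe sets that passed the filter on low signals. Nothing is read from this share, because 4 of these arrays are those that put TERT forward. In order of level the groups ran control siRNA (238 ± 60.3, SD, n = 2), DMSO (201 ± 19.9, n = 2), TSA (177 ± 20.4, n = 2), EZH2 siRNA no.2 (95.5 ± 38.0, n = 2) and the unnumbered EZH2 siRNA (30.8, 1 array). Control siRNA overlapped with DMSO and DMSO with TSA. Control siRNA did not overlap with TSA, nor TSA with EZH2 siRNA no.2.

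TERT is a dim transcript here. Its signal stood above 57.6% and 61.6% of all probe sets on the control siRNA arrays, 47.3% and 32.8% with EZH2 siRNA no.2 and 22.4% with the unnumbered EZH2 siRNA. The last value (30.8) lies close to the pseudocount of 25.1 that was added before logarithms were taken. At that level the pseudocount makes the log2 differences smaller than those of the signals alone. Whether so dim a signal measures TERT was not tested, and no detection calls were used here. The probe sets of CD3E (48.1 to 166) and HBB (96.8 to 231), genes of blood cells, read in the same range.

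**Figure D1:**
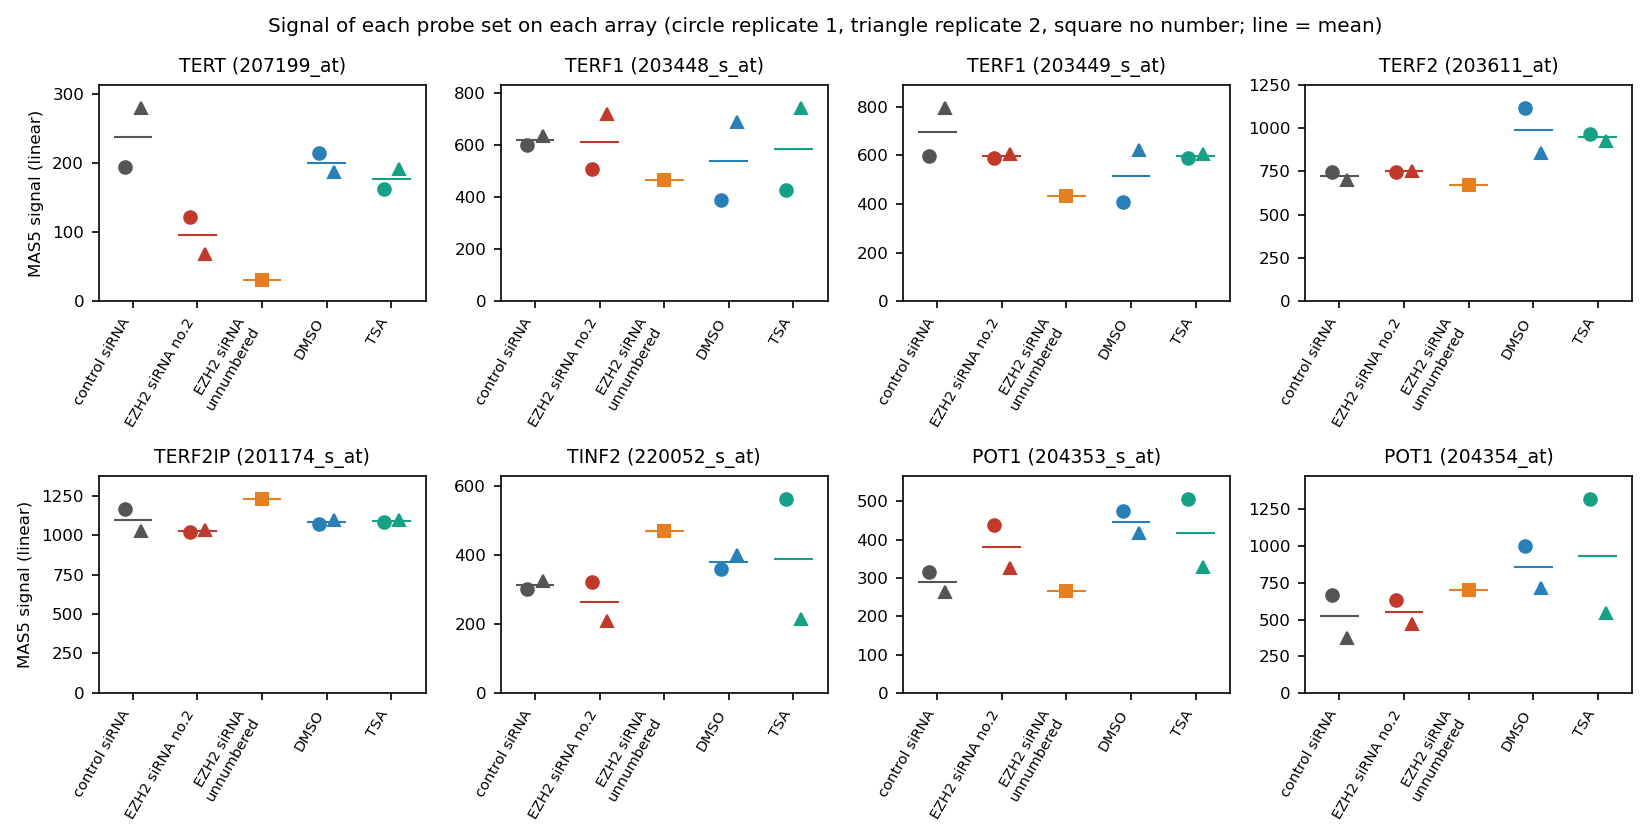
MAS5 signal (linear axis from 0) of the 8 probe sets on each of the 9 arrays, by group, where points are arrays and lines are group means. TERT is at 30.8 to 122 on the EZH2 siRNA arrays and at 163 to 281 on the others, TERF2 is higher in DMSO and TSA (859 to 1118) than with any siRNA (669 to 753), and TERF2IP keeps to 1022 to 1228.

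EZH2 itself, the siRNA's target, was read here as RNA signal only, and EZH2 protein was not measured on these arrays. The EZH2 signal was 1130.1 and 1172 with the control siRNA, 572 (replicate 1) and 271 (replicate 2) under EZH2 siRNA no.2, and 681 with the unnumbered EZH2 siRNA. DMSO gave 990.1 and 861, and TSA 1257 and 1055. Within EZH2 siRNA no.2 the array with less EZH2 also had less TERT (68.6 against 122). Across both siRNAs the order was different: the unnumbered EZH2 siRNA array had the most EZH2 of the 3 arrays (681) and the least TERT (30.8). Against the control siRNA, EZH2 gave log2 differences of −1.48 (SE 0.32) with EZH2 siRNA no.2 and −0.74 (SE 0.4) on the unnumbered array. The replicates of EZH2 siRNA no.2 (572 and 271) lay further apart than 572 and 681, so these 3 arrays cannot rank the knockdowns. Whether TERT follows the EZH2 level was not tested. Over the 9 arrays the log2 signals of both genes correlated at r = 0.67, a description of arrays that share the siRNA design.

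**Figure D2:**
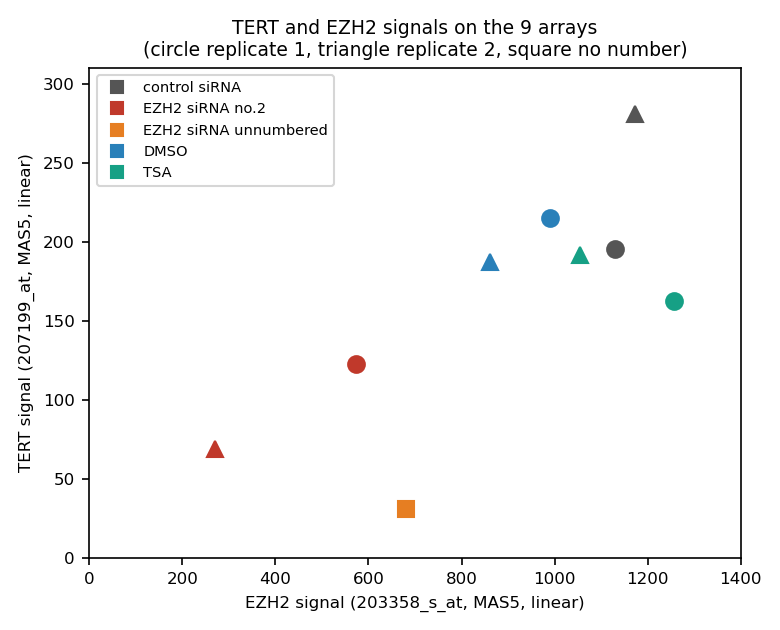
TERT signal (vertical axis) against EZH2 signal (horizontal axis) on the 9 arrays, both as linear MAS5 signals, coloured by group. The 3 EZH2 siRNA arrays lie lowest on both axes, but the array with the least TERT (30.8) has more EZH2 (681) than either array of EZH2 siRNA no.2.

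The control siRNA is the background for EZH2 siRNA no.2. TERT stood at 40.1% of the control mean (log2 −1.14, SE 0.34). It was 62.7% of the control in replicate 1 and 24.5% in replicate 2, and the log2 differences were −0.58 and −1.71. Leaving out replicate 2 of EZH2 siRNA no.2 gave −0.82 (log2), without control siRNA replicate 2 −0.91, and with a pseudocount of 87.2 it was −0.83. Of the 8 probe sets 1, TERT, was at least 2-fold lower, as were 0.512% of all probe sets, and nothing is read from this because TERT was chosen on this contrast. The other 7 probe sets ran from −0.24 (TINF2) to 0.36 (POT1, 204353_s_at), and the median of the 8 was −0.06 against 0.07 over all probe sets. Groups did not overlap for 3 of the 8, TERT downward and TERF2 and 1 POT1 probe set upward, where 35.2% of all probe sets do not overlap.

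The unnumbered EZH2 siRNA has an array of its own but shares the control siRNA arrays with the comparison above, so it was not tested. TERT stood at 12.9% of the control mean (log2 −2.22, SE 0.41, with the spread of the groups of 2). The log2 difference was −1.98 without control siRNA replicate 2 and −2.45 without replicate 1. A pseudocount of 5.42 gave −2.73 and one of 87.2 gave −1.45. Set against DMSO, the array was lower by a log2 difference of −2.01, with transfection and time also different. This rests on 1 array with a TERT signal near the pseudocount and was not tested. Of the 8 probe sets 1 was at least 2-fold lower, as were 1.85% of all. The other 7 ran from −0.64 (TERF1, 203449_s_at, SE 0.34) to 0.55 (TINF2, SE 0.48). TERF1 read below both control arrays on both of its probe sets (464 against 599.6 and 634, and 435 against 598 and 796), which at −0.39 and −0.64 is less than 2-fold. On this array 27.9% of all probe sets read below both control arrays.

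**Figure D3:**
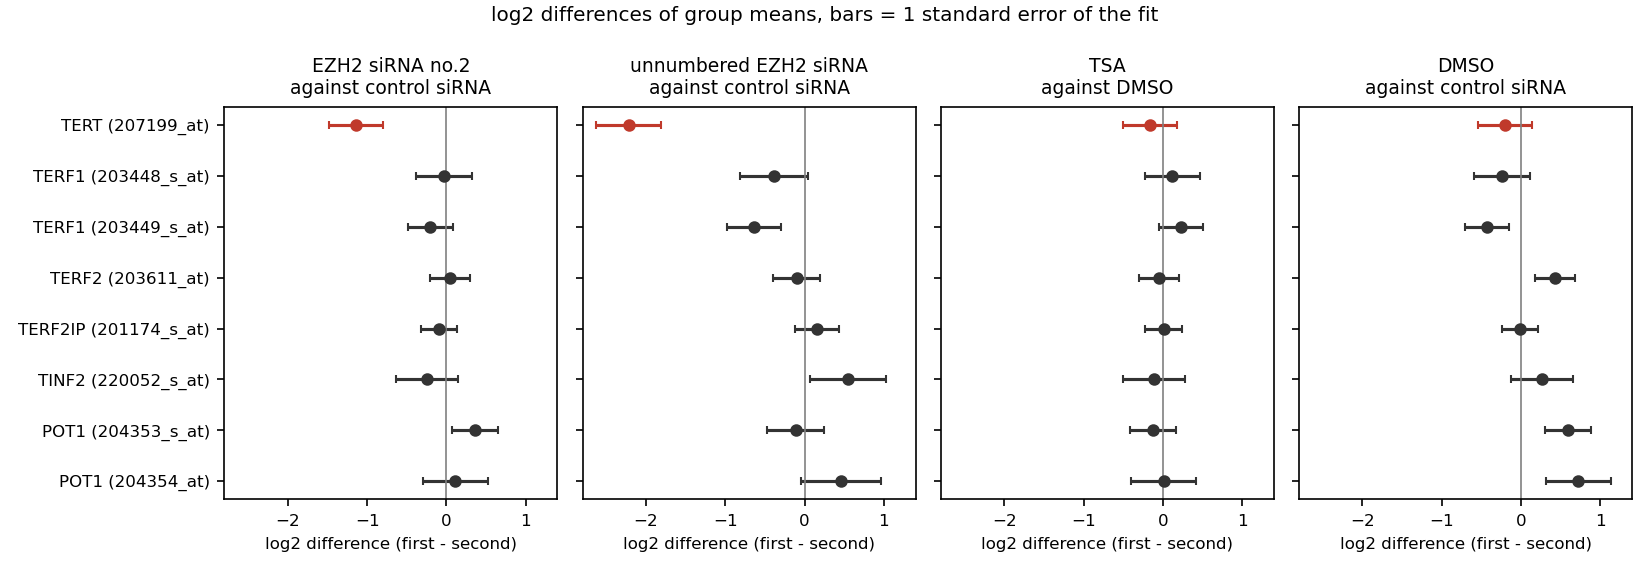
Log2 differences of group means (horizontal axis, first group minus second) for the 8 probe sets in 4 comparisons, with bars of 1 standard error of the fit. TERT (red) is at −1.14 and −2.22 with the EZH2 siRNAs and at −0.16 with TSA, while all 7 other probe sets lie between −0.64 and 0.72 in these comparisons.

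DMSO is the background for TSA, and these arrays did not put TERT forward. In this comparison 0 of the 8 probe sets passed limma, and 0 of all 13671 did (percent called 0.0, lowest adjusted p = 1.00). At an unadjusted p under 0.05 limma gave 330 probe sets, 2.41% of all, and 0 of the 8. With 2 arrays on each side the smallest p of an exact permutation test is 0.333, so it was not run. TERT gave a log2 difference of −0.16 (SE 0.34, 95% interval −0.90 to 0.58, limma adjusted p = 1.00). The interval therefore reaches from 0.534 to 1.49 times the DMSO level. The difference between this effect and that of the EZH2 siRNA was not tested. Among the shelterin genes the log2 differences ran from −0.12 (POT1, 204353_s_at) to 0.23 (TERF1, 203449_s_at, 95% interval −0.38 to 0.85), and 0 of the 8 probe sets had groups free of overlap, against 28.2% of all probe sets. TINF2 had its widest spread here, at 560.3 and 214 in TSA, so its mean signal was higher than in DMSO (387 against 379) while its log2 difference was −0.11.

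TERF2 binds telomeric double strand and keeps chromosome ends from being joined. Its signal was 744 and 699 with the control siRNA, 748 and 753 under EZH2 siRNA no.2 and 669 with the unnumbered EZH2 siRNA. It was 1118 and 859 in DMSO and 968 and 925 in TSA. All 4 arrays of DMSO and TSA (859 to 1118) were thus above all 5 siRNA arrays (669 to 753). This was so for 1 of the 8 probe sets and for 0.849% of all. DMSO against the control siRNA gave 0.43 (SE 0.25) on the log2 scale, and 0.24 without DMSO replicate 1. The differences with EZH2 siRNA no.2 (0.05, SE 0.25) and with TSA (−0.05, SE 0.25) were smaller than their standard errors.

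POT1 covers the single-stranded overhang, and both of its probe sets were higher in DMSO than with the control siRNA. The first, 204353_s_at, read 316 and 264 with the control siRNA, 438 and 326 under EZH2 siRNA no.2, 266 on the array of the unnumbered EZH2 siRNA, 476 and 418 in DMSO and 506 and 328 in TSA. The second, 204354_at, read 669.7 and 376.5, 632 and 466, 699.7, 999.6 and 713, and 1319.6 and 545 in the same order of groups. DMSO lay above the control siRNA without overlap on both probe sets, with log2 differences of 0.59 (SE 0.29) and 0.72 (SE 0.41). The second was 0.32 without control siRNA replicate 2, 1.11 without control siRNA replicate 1 and 0.48 without DMSO replicate 1. In all, 4 of the 8 probe sets did so (TERF2, TINF2 and both of POT1), against 19.4% of all probe sets, and 2 of these 4 share a gene. This comparison shares the control siRNA arrays with the EZH2 siRNA comparisons and was not tested.

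TERF1 binds the double-stranded repeats and limits their extension. Its probe set 203448_s_at read 599.6 and 634 with the control siRNA, 506 and 719 under EZH2 siRNA no.2, 464 on the array of the unnumbered EZH2 siRNA, 389 and 686 in DMSO and 427 and 742 in TSA. The other, 203449_s_at, read 598 and 796, 590.0 and 605, 435, 408 and 622, and 588 and 606 in the same order. On both probe sets EZH2 siRNA no.2 overlapped with the control siRNA, DMSO with the control siRNA, and TSA with DMSO. Both probe sets were correlated over the 9 arrays at r = 0.67, and those of POT1 at r = 0.76.

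TINF2, the bridge of the complex, read 300.1 and 322 with the control siRNA, 321 and 207 under EZH2 siRNA no.2, 468 on the array of the unnumbered EZH2 siRNA, 358 and 399.9 in DMSO and 560.3 and 214 in TSA. Its TSA arrays span almost the whole range of the 9 arrays (207 to 560.3). TERF2IP, the partner of TERF2, read 1165 and 1028 with the control siRNA, 1022 and 1035 under EZH2 siRNA no.2, 1228 on the array of the unnumbered EZH2 siRNA, 1074 and 1094 in DMSO and 1083 and 1099 in TSA. The highest TERF2IP array was 1.20 times the lowest, and its SD of 0.09 (log2, n = 9) was exceeded by nearly all probe sets, since it stood at percentile 0.132 of that spread. TERT stood at percentile 98.0 (SD 0.77), which its choice favours, and the other 6 probe sets at percentiles 23.9 (TERF2) to 87.9 (POT1, 204354_at).

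The titles number the replicates but do not say that a number marks a shared culture or batch. Several members differed between replicate numbers in the same way in every group. TERF1 was higher on replicate 2 than on replicate 1 in all 4 groups of 2 with both probe sets, by 0.08 to 0.78 (203448_s_at) and 0.03 to 0.58 (203449_s_at) on the log2 scale. POT1 was lower on replicate 2 in all 4 groups with both probe sets, with log2 differences of −0.59 to −0.18 (204353_s_at) and −1.24 to −0.42 (204354_at). That makes 4 of the 8 probe sets, from 2 genes, where 26.2% of all probe sets had the same number higher in all 4 groups. TERT did not follow the number: replicate 2 was higher with the control siRNA (0.47) and in TSA (0.21) and lower with EZH2 siRNA no.2 (−0.65) and in DMSO (−0.18). The ratio of 3′ to 5′ signal of ACTB, a measure of RNA integrity, was higher on replicate 2 in all 4 groups. It was 1.03 to 1.25 on replicate 1 and 1.24 to 1.44 on replicate 2. The same ratio of GAPDH did not follow the number. From replicate 1 to replicate 2 it rose with the control siRNA (0.985 to 1.00) and in TSA (0.846 to 1.02). It fell with EZH2 siRNA no.2 (1.03 to 0.927) and in DMSO (0.997 to 0.968). The part of RNA integrity in the TERF1 and POT1 differences was not tested.

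**Figure D4:**
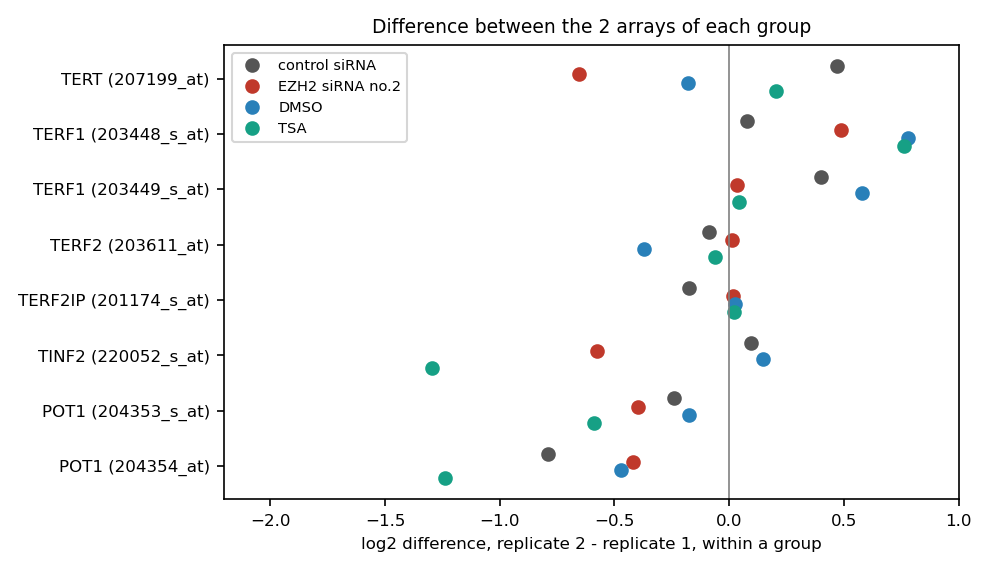
Log2 difference between the 2 arrays of each group, replicate 2 minus replicate 1 (horizontal axis), for the 8 probe sets, coloured by group. TERF1 lies right of 0 in all 4 groups, POT1 left of 0 in all 4, and TERT on both sides, from −0.65 to 0.47.

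Telomerase works only when assembled with its RNA and helper proteins, and the genes for this were followed as lists, 1 probe set per gene. Of 70 listed genes 64 had a probe set of their own and 63 were tested. With TSA 0 of the 63 passed limma, and 1 had an unadjusted p under 0.05 (2.41% of all probe sets do). That gene was STN1, a subunit of the complex that refills the telomere's C-rich strand, at 219 and 255 in TSA against 394 and 511 in DMSO (log2 −0.86, SE 0.33, limma adjusted p = 1.00). With the control siRNA STN1 read 225 and 281, so the DMSO arrays stood above both (log2 0.78 against the control siRNA). RTEL1, a helicase that unwinds telomere loops, read 228 and 280.5 in TSA against 155 and 176 in DMSO (log2 0.55, SE 0.26, limma adjusted p = 1.00). It too was nearer to the control siRNA (263 and 265) in TSA than in DMSO.

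The telomerase assembly genes had a median log2 difference of −0.06 with TSA and 0.00 with EZH2 siRNA no.2 (9 genes), against 0.04 and 0.07 over all probe sets. Their smallest p with TSA belonged to NOP10 (−0.60, SE 0.37) and NHP2 (−0.27, SE 0.33), both parts of the core that binds the telomerase RNA, with a limma adjusted p of 1.00 each. With EZH2 siRNA no.2 these genes ran from −0.32 (NHP2) to 0.37 (RUVBL1). The 15 end processing and capping genes had medians of 0.04 with TSA and −0.09 with EZH2 siRNA no.2. They include ACD, the shelterin subunit that recruits telomerase, at −0.16 (SE 0.25) with EZH2 siRNA no.2. The 12 repair partners had medians of 0.05 and 0.15. In TSA ATR, a DNA damage kinase, was at 0.51 (SE 0.29) and PRKDC, the kinase of end joining, at 0.37 (SE 0.29). In DMSO against the control siRNA ATR gave −0.36 and PRKDC 0.21.

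Transcription factors known to act on the TERT promoter had medians of 0.10 with TSA and 0.14 with EZH2 siRNA no.2 (15 genes). In TSA the smallest p belonged to CTCF (0.51, SE 0.24) and NFX1 (0.39, SE 0.27), with a limma adjusted p of 1.00 each. CTCF read 1171 to 1298 with the control siRNA, 927 to 934 in DMSO and 1230 to 1453 in TSA. In DMSO against the control siRNA CTCF gave −0.40 and NFX1 −0.01. MYC, which binds E-boxes, gave 0.19 with EZH2 siRNA no.2, −0.05 on the unnumbered EZH2 siRNA array and −0.01 with TSA. USF2, another E-box binder, gave 0.18 (SE 0.53), −1.69 (SE 0.65, 1 array) and −0.63 (SE 0.53) in the same order. On the unnumbered EZH2 siRNA array 1.85% of all probe sets were at least 2-fold lower. MAX, of the same list, gave −0.21, 0.12 and 0.05 in these comparisons. MYC, MAX and USF2 were singled out after their values had been seen. The 12 proliferation genes had a median of 0.12 with TSA, where MCM5 (0.36, SE 0.26) and MCM7 (0.35, SE 0.27) had the smallest p. In DMSO against the control siRNA MCM5 gave −0.31 and MCM7 −0.29. With EZH2 siRNA no.2 the proliferation genes had a median of −0.02 and ran from −0.38 (CDK1) to 0.14 (MCM3). With EZH2 siRNA no.2, 0 of the 63 genes in these lists were at least 2-fold lower or higher, where 1.98% of all probe sets were.

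**Figure D5:**
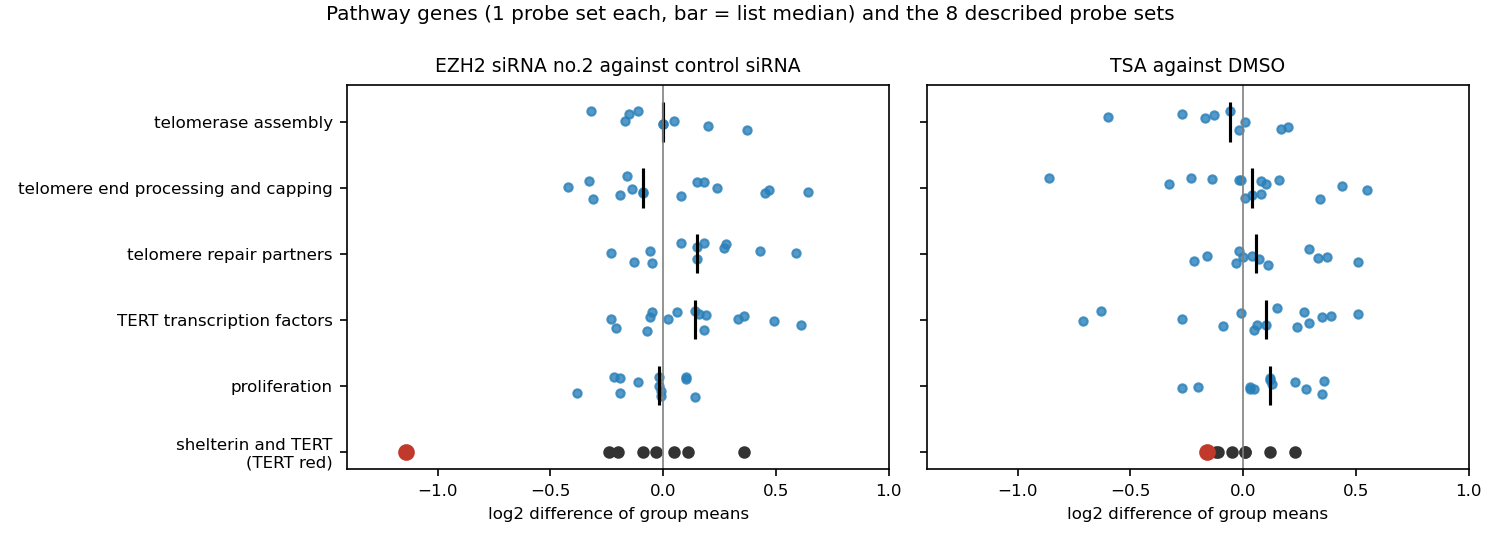
Log2 differences of group means (horizontal axis) for the genes of 5 lists (1 point per gene, bar at the list's median) and, in the bottom row, for the 8 probe sets of TERT (red) and the shelterin genes. With EZH2 siRNA no.2 (left) TERT, chosen on this contrast, is at −1.14 and the list genes run from −0.42 to 0.64, and with TSA (right) TERT, at −0.16, lies among them.

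The probe sets whose log2 signals were most like those of TERT over the 9 arrays were TMEM41B (r = 0.94), ATG4B (0.93), TCF3 (0.93), CAV3 (0.93) and PRKAB1 (0.93). Of 13670 probe sets 7 had r above 0.90, and 11 ran opposite to TERT past the same cutoff. TMEM41B was lowest with the EZH2 siRNAs, with 1529 to 1832 with the control siRNA, 1154 to 1460 with EZH2 siRNA no.2, 873 on the unnumbered array, 1720 to 1754 in DMSO and 1543 to 1883 in TSA. Unlike TERT, its DMSO and TSA means were not below that of the control siRNA. TCF3, read by a dim probe set, went from 143 to 203 with the control siRNA to 51.6 to 100.1 and 21.8 with the EZH2 siRNAs, but read 77.4 to 176 in DMSO, which overlaps with EZH2 siRNA no.2, and 105 to 190 in TSA. Among the shelterin genes the likest to TERT was TERF1 (203449_s_at, r = 0.47), followed by TERF2 (r = 0.46). These are descriptions over 9 arrays that share the same treatments.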

How the data were processed

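Total RNA of A673 cells was hybridised to human U133A arrays, and the authors deposited intensity values from MAS5, per the submitters' processing notes; its version and scaling are not given in the sources used here. Probe sets were named from the platform annotation: 19065 name 1 gene, 1043 several, 2107 none, and 68 are controls. Each signal was turned into log2(signal + 25.1), the 20th percentile of all values. Probe sets under the 30th percentile of mean signal (53.2) were dropped, which left 13671, and all 8 member probe sets passed. All 9 arrays entered 1 fit of 5 group means (limma 3.58.1, R 4.3.3; eBayes with trend, 4 residual and 7.01 prior degrees of freedom), two-sided, with the Benjamini-Hochberg adjustment over all probe sets tested and a threshold of 0.05. Counts of the 5 lists take the probe set of highest mean per gene. The number of arrays limits the precision.

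Members, lists and tests were chosen with earlier results of these data known. Named genes are all members, the list genes past the threshold for TSA or else the 2 of smallest p, and the 5 probe sets most like TERT. RUVBL1, ACD, MYC, MAX, USF2, CDK1 and MCM3 fall outside this rule and were named after their values were seen. Alternatives were other pseudocounts and filters, 1 probe set per gene, quantile or median scaling, no trend, fewer arrays, merged EZH2 siRNA arrays, leaving out each array in turn and a block for the replicate number.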

Additional observations from a re-analysis of the deposited data

How the results depend on the processing

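With EZH2 siRNA no.2, TERT stayed below the control siRNA under every alternative run, at a log2 difference of −1.50 to −0.82. These alternatives reuse the arrays that put TERT forward, so they describe the processing and are no separate support. The difference was −0.83 with the pseudocount of 87.2 and −1.50 with the 3 EZH2 siRNA arrays as 1 group, and leaving out arrays gave −1.47 to −0.82. The count of members at least 2-fold lower was then 0 with the pseudocount of 87.2 and 0 to 1 with an array left out. With TSA, 0 probe sets, 0 members and 0 list genes passed under any alternative, the lowest adjusted p of a member being 0.756, and TERT ran from −0.27 to −0.06. The sign of other members with TSA turned for TERF2IP with quantile normalization (−0.01) and with arrays brought to a common median (−0.07), which also turned POT1 204354_at (−0.07). With an array left out, the ranges crossed 0 for TERF1 203448_s_at (−0.27 to 0.51), TERF1 203449_s_at (−0.06 to 0.52), TERF2 (−0.23 to 0.14), TINF2 (−0.76 to 0.54), POT1 204353_s_at (−0.42 to 0.17) and POT1 204354_at (−0.61 to 0.63), and for TERF2IP the range was 0.00 to 0.02; the cause was not tested. The replicate numbers are shared by 4 groups, and the differences between the 2 numbers correlated between groups at r = 0.10 to 0.41 across probe sets, but only 2 numbers exist and nothing ties them to shared cultures. With a replicate block 601 probe sets had an unadjusted limma p under 0.05 with TSA against 330 without it, 0 passed in both cases, and TERT gave −1.14 with EZH2 siRNA no.2 and −0.16 with TSA. Without TSA replicate 2 the unadjusted count was 1033, without DMSO replicate 1 it was 145, and without DMSO replicate 2 it was 525. TERT in DMSO against the control siRNA was −0.20, and 0.04 without control siRNA replicate 2. Signals near the pseudocount limit the TERT value with the unnumbered EZH2 siRNA, which ran from −2.73 to −1.45.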

Other observations

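Genes next to TERT on its chromosome arm in the GRCh38.p14 gene order were looked at after its values had been seen. Among the 6 protein-coding genes on either side, 3 had a probe set of their own, and all 3 passed the filter. SLC12A7, an ion cotransporter 4 genes away, read 1109 to 1746 and gave log2 differences of 0.20 with EZH2 siRNA no.2, 0.13 on the unnumbered EZH2 siRNA array, 0.40 with TSA and −0.13 in DMSO against the control siRNA. LPCAT1, a phospholipid enzyme 5 genes to the other side, read 496 to 2099 and gave 0.86 and 1.10, and it was also higher with TSA (0.72) and in DMSO against the control siRNA (0.50). SLC6A3, the dopamine transporter, was dim (15.6 to 128) and gave −0.69 and −0.32 with the EZH2 siRNAs, 1.07 with TSA and −1.34 in DMSO against the control siRNA. TERT gave −1.14, −2.22, −0.16 and −0.20 in these 4 comparisons.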
